A study of Mus musculus with 6 samples.

Results

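The genes described here are 10 Sox transcription factor genes of neural progenitors: Sox1, Sox2, Sox3, Sox21, Sox4, Sox11, Sox5, Sox6, Sox8 and Sox9. They are the rows of the count table that carry these symbols. All 10 were among the 24421 gene rows of the table, and all 10 passed the filter on low counts, as did 11317 genes in all. The cells were primary embryonic neural stem cells from mouse embryos at E13.5, grown as neurospheres, which are floating clusters of dividing progenitors. The culture medium of both genotypes held 20 ng/ml epidermal growth factor and 20 ng/ml fibroblast growth factor 2 under 20% oxygen, and neurospheres were lysed on day 4 after dissociation. The 3 WT libraries were compared with 3 libraries from Pml knockout cells. Pml encodes the promyelocytic leukemia protein, the scaffold of nuclear bodies of that name. The labels give 1 batch date for all 6 libraries. They do not state the strain, which part of Pml was removed, or whether replicates came from separate embryos or cultures, so p-values measure the spread between samples that may be technical replicates.

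Sox proteins bind DNA through an HMG box, a domain that bends the double helix, and family members are placed in lettered groups by the likeness of that box. Group B1 (Sox1, Sox2, Sox3) keeps neural progenitors undifferentiated, and the group B2 repressor Sox21 opposes it. Group C (Sox4, Sox11) promotes neuronal gene expression as progenitors leave the cycle, group D (Sox5, Sox6) lacks an activation domain of its own and modulates the other groups, and group E (Sox8, Sox9) supports the start of gliogenesis.

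What the 10 genes share at the sequence level is shown first; the 3′ tags counted here are taken from another part of the transcript. The 60-base in-frame stretch of the Sox2 coding sequence that was most alike to its best match in each other gene is printed 5′ to 3′ on the coding strand from the GENCODE M21 transcripts (GRCm38), with bases that differ from Sox2 in capitals.
Sox2: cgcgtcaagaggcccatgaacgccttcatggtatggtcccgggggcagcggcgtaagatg
Sox1: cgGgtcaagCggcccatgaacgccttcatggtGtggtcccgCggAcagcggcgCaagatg
Sox3: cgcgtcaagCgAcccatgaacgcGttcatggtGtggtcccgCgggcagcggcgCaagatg
Sox21: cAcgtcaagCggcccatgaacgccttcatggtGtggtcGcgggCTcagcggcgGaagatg
Sox4: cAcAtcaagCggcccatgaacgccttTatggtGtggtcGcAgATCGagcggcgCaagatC
Sox11: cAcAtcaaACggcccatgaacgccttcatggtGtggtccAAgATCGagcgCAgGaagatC
Sox8: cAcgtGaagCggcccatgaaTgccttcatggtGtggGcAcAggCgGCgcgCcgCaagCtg
Sox9: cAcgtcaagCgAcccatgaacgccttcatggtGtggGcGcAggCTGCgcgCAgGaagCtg
Sox5: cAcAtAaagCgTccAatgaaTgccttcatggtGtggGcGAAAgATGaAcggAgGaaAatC
Sox6: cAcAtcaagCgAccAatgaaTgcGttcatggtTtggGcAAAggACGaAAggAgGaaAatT
In this stretch, part of the HMG box, Sox1 and Sox3 matched Sox2 at 54 of 60 bases each, Sox21 at 53, Sox4 at 47, Sox8 at 46, Sox9 and Sox11 at 45 each, and Sox5 and Sox6 at 39 each. Within groups Sox1 and Sox3 shared 56 bases, Sox4 and Sox11 like Sox8 and Sox9 shared 53, and Sox5 and Sox6 shared 51. Pairs from different groups came as close in places, since Sox21 shared 53 with Sox1, 52 with Sox9 and 51 with Sox4.

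The library kit counts tags at the 3′ ends of transcripts, away from this box, and those ends were searched for sequence shared with other genes. Among all 30-base words in the last 300 bases of the annotated protein-coding transcripts, 0 of 271 in Sox2 occurred on either strand of a transcript of another gene, and the same held for Sox1, Sox3, Sox9, Sox11 and Sox21. Sox6 had 0 of 1639 over its 10 transcripts, Sox5 had 1 of 1306 and Sox8 had 8 of 635. Sox4 was the exception, with 134 of 271, shared with the antisense gene Gm26735, which overlaps it, and with Olfr787. How these words divide between the 2 genes was not counted. Sox5, Sox6, Sox8 and Sox21 also overlap genes on the opposite strand, but none of those genes shared such words with them. The sources used here do not state how strand was treated in the counting, so reads of Sox4 and of that antisense gene cannot be told apart.

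Of the 10 genes, 6 have a single exon in the annotation (GRCm38): Sox1 (chromosome 8, 12395295 to 12400126, plus strand), Sox2 (chromosome 3, 34650405 to 34652461, plus), Sox3 (chromosome X, 60891366 to 60893430, minus), Sox21 (chromosome 14, 118233232 to 118237030, minus), Sox4 (chromosome 13, 28948919 to 28953713, minus) and Sox11 (chromosome 12, 27334264 to 27342574, minus). Sox9 has 3 exons (chromosome 11, 112782224 to 112787760, plus), and Sox8 has up to 3 (chromosome 17, 25565892 to 25570686, minus). Both group D genes are spread over far longer stretches, 953553 bases for Sox5 (chromosome 6, 143828425 to 144781977, minus) and 567925 bases for Sox6 (chromosome 7, 115470872 to 116038796, minus). Sox2 lies within the long noncoding gene Sox2ot on the same strand, and Sox1 overlaps the noncoding gene Sox1ot on its strand.

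Total counts ran from 1775152 (WT replicate 2) to 5917505 (knockout replicate 1), so 1 read was worth from 0.149 to 0.799 CPM (read counts relative to the library size, scaled with library factors). The WT libraries were not alike. The 45S pre-ribosomal RNA row took 41.9% and 39.8% of the counts in WT replicates 1 and 2, 19.6% in WT replicate 3 and between 14.6% and 17.6% in the knockout libraries. Summed over 12 hepatocyte markers, the level was 410, 635 and 133 CPM in WT replicates 1, 2 and 3 and between 64.8 and 91.2 in the knockout. Pml itself had 36, 35 and 44 reads in WT against 14, 23 and 5 in the knockout (10.7, 28.0 and 9.99 against 2.11, 3.79 and 0.75 CPM), with a log2 fold change of -2.81 (SE 0.66) that missed the threshold (edgeR adjusted p 0.197). Markers of neural stem and progenitor cells summed to between 5242 and 7714 CPM over all libraries. Vim alone held between 2731 and 3354 CPM of that sum, while Fabp7 ran from 73.5 to 2132 CPM. Neuron markers summed to 751, 973 and 935 CPM in WT replicates 1, 2 and 3 and to 752, 722 and 684 in the knockout. Astrocyte markers summed to 1306, 2820 and 729 CPM in WT replicates 1, 2 and 3 and to 1465, 1703 and 1278 in the knockout. Oligodendrocyte lineage markers summed to 1935, 1192 and 2053 CPM in WT and to 1651, 2144 and 1908 in the knockout. Microglia and macrophage markers summed to 2.98, 33.6 and 0.908 CPM in WT and to 2.11, 0 and 0.298 in the knockout. Of the red blood cell list 5 of 7 genes had 0 reads everywhere, and of the endothelial list 5 of 8.

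None of the 10 Sox genes passed the test between genotypes. At an adjusted p under 0.05 by edgeR's quasi-likelihood test the count was 0 of 10, where 0.00884% of all tested genes passed. At an unadjusted p under 0.05 it was 2 of 10, Sox4 and Sox5, both higher in the knockout, where 6.70% of tested genes were higher and 9.19% lower. That count fell to 1 when any 1 knockout library was left out: Sox4 had an unadjusted p of 0.102 without knockout replicate 1, and Sox5 had 0.0975 without replicate 2 and 0.0547 without replicate 3. Without WT replicate 1 Sox5 had an unadjusted p of 0.0756, while Sox8, at 0.0491, came under 0.05. The count was 3 without WT replicate 2 (Sox3 added, lower in the knockout), with library totals (Sox21 added, higher) and by voom with library quality weights (Sox3 added, lower). DESeq2, edgeR's exact test and limma voom also passed 0 of 10, where DESeq2 passed 2.90%, the exact test 3.16% and voom 0.00% of all genes. An adjusted p under 0.05 stood beside 0 of 10 in the authors' deposited table, and beside 2.94% of the genes tested there. The fitted mean was higher in the knockout for 7 genes and lower for 3, and the median log2 fold change was 0.21, against -0.01 over all tested genes. The split was 6 to 4 with DESeq2's size factors, 8 to 2 with upper quartile factors and 9 to 1 with library totals, a scaling that moved the median of all genes to 0.43. CPM of the 2 genotypes did not overlap for Sox4, Sox5 and Sox21, all higher in the knockout, where 12.3% of tested genes were higher without overlap and 11.3% lower.

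**Figure D1:**
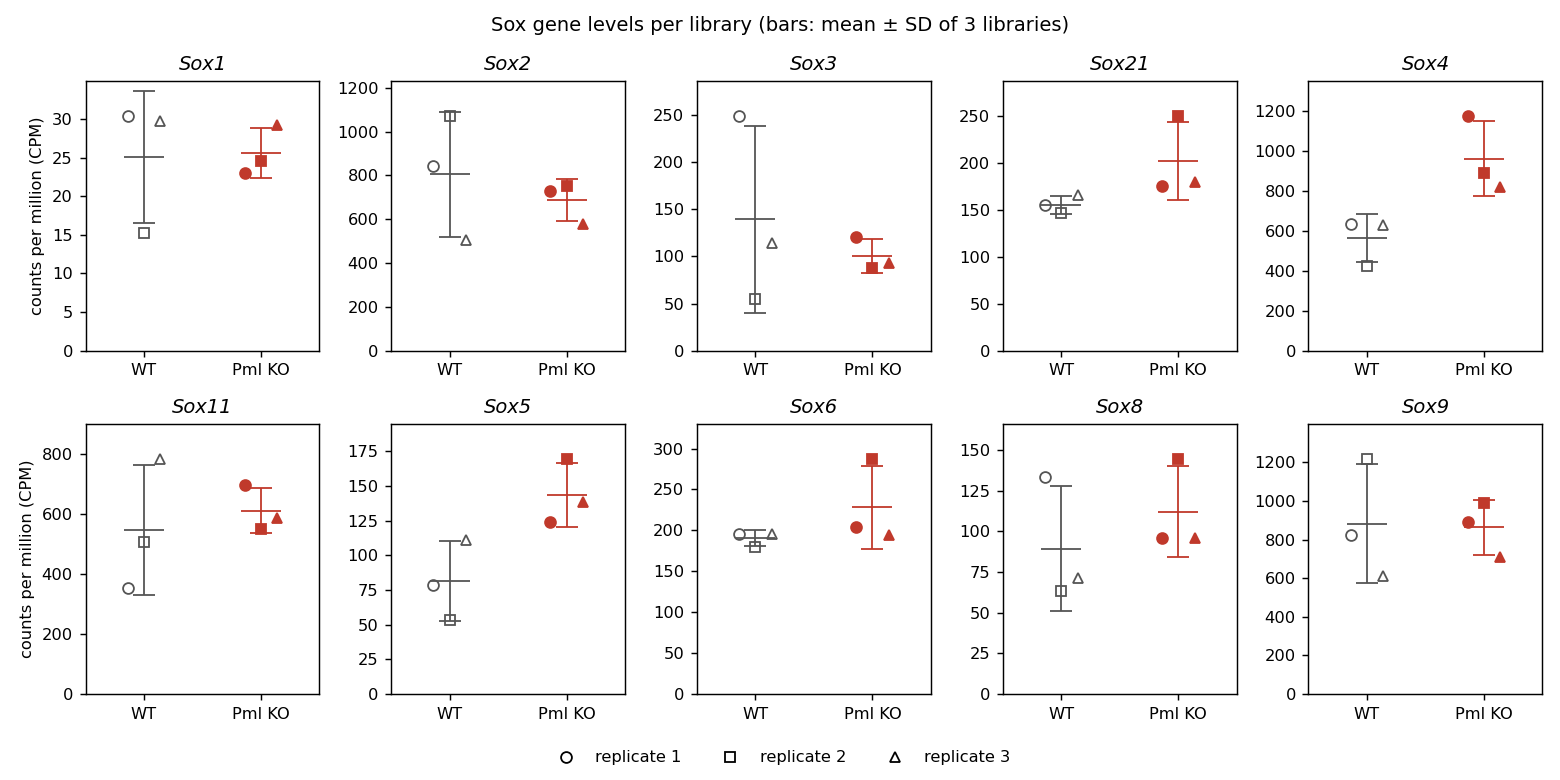
Level of each Sox gene in CPM (linear axis from 0) in the WT libraries (open grey) and the Pml knockout libraries (filled red), with marker shapes for replicate numbers and bars for mean ± SD of 3 libraries. In Sox4, Sox5 and Sox21 every knockout library lies above every WT library, while in the other 7 genes the genotypes overlap.

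Sox2, the group B1 factor that defines neural stem cells, had 2829, 1339 and 2219 reads in WT replicates 1, 2 and 3 and 4860, 4557 and 3876 in the knockout. Its level was 842, 1070 and 504 CPM in WT and 731, 751 and 578 in the knockout. The 3 knockout libraries lie inside the WT range, which WT replicate 2 tops and WT replicate 3 closes at the bottom. The means were 805 ± 285 and 687 ± 94.8 CPM (SD, n = 3 each), and the log2 fold change of -0.23 (SE 0.32, edgeR adjusted p 0.745) had a 95% interval from -0.95 to 0.49. In linear terms that interval runs from 0.519-fold to 1.40-fold. Without WT replicate 2 the log2 fold change was 0.04, and against WT replicate 3 alone it was 0.44.

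Sox3, the X-linked member of group B1, had the widest WT spread of the 10 relative to its mean (coefficient of variation 71.0%). It had 835, 69 and 505 reads in WT against 804, 529 and 623 in the knockout, or 249, 55.2 and 115 CPM against 121, 87.2 and 92.9. WT replicate 1 is high and WT replicate 2 low, and the knockout lies between them. The log2 fold change was -0.48 (SE 0.45, interval -1.49 to 0.52, edgeR adjusted p 0.616), and it turned to 0.23 without WT replicate 1. Sox1, the third group B1 gene and a marker of the early neural plate, had few reads, 102, 19 and 131 in WT and 153, 149 and 196 in the knockout. At 30.4, 15.2 and 29.7 CPM against 23.0, 24.6 and 29.2, only WT replicate 2, with its 19 reads, stood apart. The Sox1 fold change was 0.00028 on the log2 scale (SE 0.37, interval -0.82 to 0.82).

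Sox21, the group B2 repressor, had 521, 183 and 729 reads in WT against 1168, 1515 and 1205 in the knockout. The levels were 155, 146 and 165 CPM in WT and 176, 250 and 180 in the knockout, so the genotypes did not overlap. Knockout replicate 2 stood well above the rest. WT libraries that differed widely in Sox2 and Sox3 were close to each other in Sox21, with a coefficient of variation of 6.17% against 35.4% and 71.0%. The log2 fold change of 0.37 (SE 0.25, interval -0.19 to 0.94) did not pass (edgeR adjusted p 0.486), and it was 0.20 without knockout replicate 2.

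Sox4, a group C activator of neuronal genes that is also expressed in many dividing cells, had 2138, 533 and 2775 reads in WT against 7816, 5419 and 5494 in the knockout. Its level was 636, 426 and 630 CPM in WT and 1176, 894 and 819 in the knockout. Every knockout library stood above every WT library, and WT replicate 3, the WT library with the low ribosomal share, stood with the other WT libraries. The means were 564 ± 120 and 963 ± 188 CPM (SD, n = 3 each), 1.71-fold higher, with a log2 fold change of 0.77 (SE 0.29, interval 0.12 to 1.42). The unadjusted p was 0.0243 and the edgeR adjusted p 0.253, so Sox4 did not pass. Its log2 fold change lay between 0.61 and 1.19 over all alternatives and was 0.61 against WT replicate 3 alone. The adjusted p-values of these alternatives lay between 0.0762 and 0.714. The shares of the antisense gene Gm26735 and of Olfr787 in these reads were not tested.

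Sox11, the other group C gene and an activator of the same neuronal genes, overlapped between genotypes. It had 1189, 634 and 3439 reads in WT against 4613, 3338 and 3929 in the knockout, or 354, 507 and 781 CPM against 694, 550 and 586. WT replicate 3 was the highest of all 6 libraries and WT replicate 1 the lowest. The log2 fold change was 0.16 (SE 0.32, interval -0.57 to 0.88, edgeR adjusted p 0.832). It was 0.52 without WT replicate 3 and -0.07 without WT replicate 1. Against WT replicate 3 alone it was -0.36. Whether the fold changes of Sox4 and Sox11 differ was not tested.

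Sox5, a group D gene that controls cell cycle exit of neural progenitors, had 265, 67 and 490 reads in WT against 823, 1026 and 926 in the knockout. Its level was 78.9, 53.6 and 111 CPM in WT and 124, 169 and 138 in the knockout. The genotypes did not overlap, with WT replicate 3 close under knockout replicate 1. The means were 81.2 ± 28.9 and 144 ± 23.2 CPM (SD, n = 3 each), 1.77-fold higher, with a log2 fold change of 0.81 (SE 0.31, interval 0.13 to 1.50, unadjusted p 0.0248, edgeR adjusted p 0.255). Sox5 was the gene of the 10 that passed under any alternative: without WT replicate 3 (log2 fold change 1.12, edgeR adjusted p 0.0338), where 13.0% of all genes passed, and by voom with library quality weights (0.85, adjusted p 0.0371), where 11.0% did. Over all its alternatives the adjusted p lay between 0.0338 and 0.715. Against WT replicate 3 alone the log2 fold change was 0.36.

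Sox6, which forms dimers with Sox5, had 659, 224 and 861 reads in WT against 1353, 1739 and 1300 in the knockout. At 196, 179 and 195 CPM the WT libraries were close to each other, and 204 and 194 CPM in knockout replicates 1 and 3 lay beside them. Knockout replicate 2 stood apart at 287 CPM. The log2 fold change was 0.26 (SE 0.26, interval -0.31 to 0.83, edgeR adjusted p 0.632) and dropped to 0.07 without that library.

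Sox9, the group E factor that starts gliogenesis and marks progenitors and astrocytes, had 2763, 1520 and 2686 reads in WT against 5908, 6007 and 4751 in the knockout. At 822, 1215 and 610 CPM the WT libraries again bracketed the knockout libraries, at 889, 991 and 709. WT replicate 2 was highest and WT replicate 3 lowest, as for Sox2. The log2 fold change of -0.03 (SE 0.32, edgeR adjusted p 0.970) had an interval from -0.74 to 0.68, that is from 0.598-fold to 1.60-fold. Sox8, its close relative, had 448, 79 and 314 reads in WT against 638, 875 and 643 in the knockout, or 133, 63.1 and 71.3 CPM against 96.0, 144 and 95.9. WT replicate 1 and knockout replicate 2 were the high libraries. The Sox8 log2 fold change was 0.32 (SE 0.34, interval -0.43 to 1.07, edgeR adjusted p 0.656), 0.74 without WT replicate 1 and 0.11 without knockout replicate 2.

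**Figure D2:**
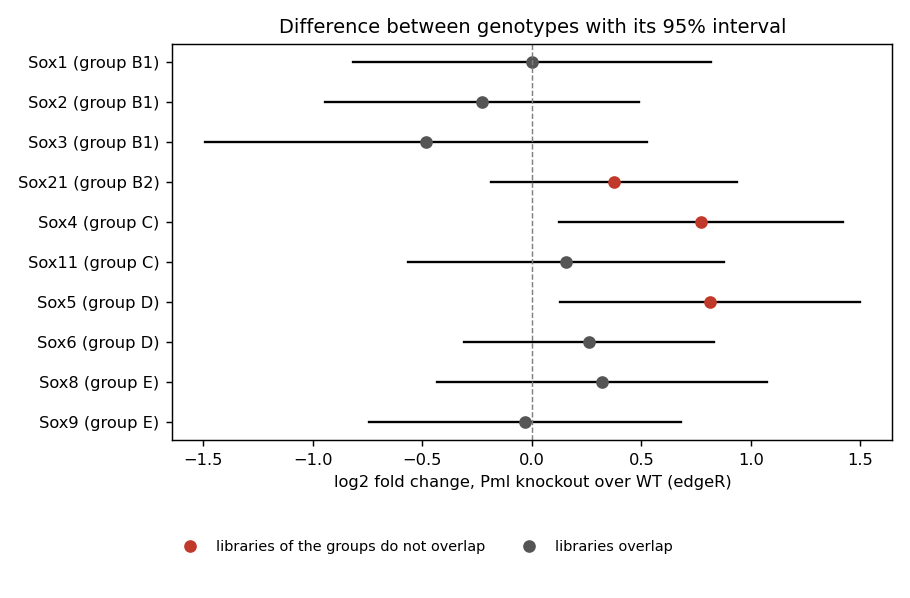
Log2 fold change of each Sox gene, Pml knockout over WT, with its 95% interval from edgeR before any adjustment over genes; red points mark genes whose libraries do not overlap between genotypes. The intervals of Sox4 (0.12 to 1.42) and Sox5 (0.13 to 1.50) lie above 0 and the other 8 include it.

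**Figure D3:**
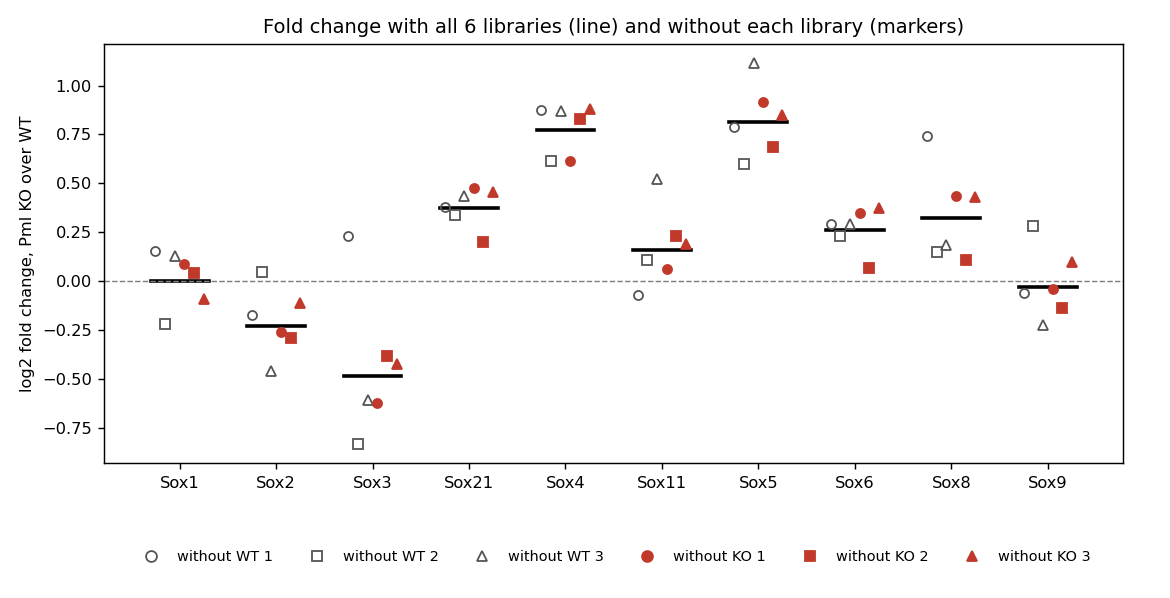
Log2 fold change with all 6 libraries (black lines) and with each library left out in turn (markers, by genotype and replicate of the library left out). Sox4, Sox5, Sox21, Sox6 and Sox8 stay above 0 throughout, whereas Sox1, Sox2, Sox3, Sox11 and Sox9 change sign when at least 1 library is left out.

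The make-up of Sox reads within a library needs no scaling between libraries. The 10 genes held 11749, 4667 and 14149 reads in WT replicates 1, 2 and 3 and 28136, 25154 and 22943 in the knockout. Group B1 took 32.1%, 30.6% and 20.2% of them in WT and 20.7%, 20.8% and 20.5% in the knockout. Group C took 28.3%, 25.0% and 43.9% in WT and 44.2%, 34.8% and 41.1% in the knockout. In both groups WT replicate 3 lay with the knockout libraries rather than with WT replicates 1 and 2. Reads of group C per read of group B1 numbered 0.883, 0.818 and 2.18 in WT and 2.14, 1.67 and 2.01 in the knockout. The libraries with the low ratio are those with the high shares of ribosomal RNA (41.9% and 39.8%) and the high hepatocyte sums (410 and 635 CPM), and the part of these in the ratio was not tested. These are shares of tags, compared between libraries and not between genes.

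**Figure D4:**
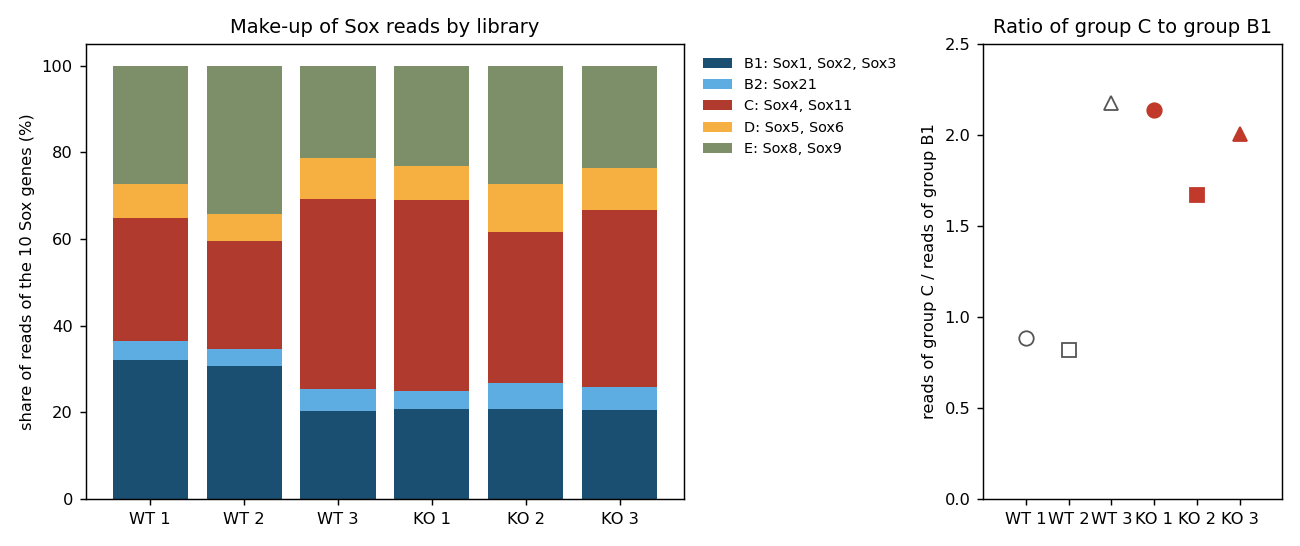
Left, share of the reads of the 10 Sox genes taken by each Sox group in each library (bars sum to 100%); right, reads of group C divided by reads of group B1, with WT libraries open and Pml knockout (KO) libraries filled. The ratio is 0.883 and 0.818 in WT replicates 1 and 2 and between 1.67 and 2.18 in the other 4 libraries.

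Within these reads Sox4 took 18.2% (exact 95% interval 17.5 to 18.9), 11.4% (10.5 to 12.4) and 19.6% (19.0 to 20.3) in WT replicates 1, 2 and 3. It took 27.8% (27.3 to 28.3), 21.5% (21.0 to 22.1) and 23.9% (23.4 to 24.5) in the knockout. The Sox4 shares did not overlap between genotypes, WT replicate 3 included. The intervals of libraries of the same genotype did not overlap each other either. Sox11 took 10.1%, 13.6% and 24.3% in WT and 16.4%, 13.3% and 17.1% in the knockout, with WT replicate 3 at the top. Sox2 took 24.1%, 28.7% and 15.7% in WT and 17.3%, 18.1% and 16.9% in the knockout. Molecular identifiers are not named in the sources used here. The intervals treat each read as a separate molecule and take no account of PCR duplicates, so they may be too narrow.

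Summed over the 10 genes and scaled to the counts outside the 45S row, the level was 4578, 4368 and 4474 CPM in WT and 5768, 5917 and 4916 in the knockout, without overlap. Scaled with library factors the same sums were 3497, 3731 and 3212 CPM in WT and 4233, 4148 and 3422 in the knockout, and here knockout replicate 3 fell below WT replicates 1 and 2. The order of the sums thus depended on the scaling. In bulk RNA a smaller number of cells of a type and less RNA per cell cannot be told apart.

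Several other rows of the Sox family had no or few reads. The endothelial group F genes Sox7 and Sox18 had 0 reads in all libraries, and Sox17 had 5 reads in WT replicate 1 and 0 elsewhere. Sox14, the second group B2 gene, and Sry had 0 reads, Sox15 had 1 and Sox30 had 2. Sox12, the third group C gene, had 51.2, 151 and 42.2 CPM in WT and 44.7, 60.2 and 55.3 in the knockout, so only WT replicate 2 was high (log2 fold change -0.58, SE 0.45, edgeR adjusted p 0.540). Sox13, the third group D gene, was at 16.8 CPM or less in every library. Sox2ot, the noncoding transcript around Sox2, had 10.4, 6.39 and 12.9 CPM in WT and 14.1, 28.7 and 12.8 in the knockout (fitted log2 fold change 0.85, SE 0.44, edgeR adjusted p 0.368).

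Genes that work with Sox proteins, from a list of 19 partners and cofactors, had 18 tested members, of which 0 passed over all genes by edgeR and 3 had an unadjusted p under 0.05, 2 higher (against 6.70% of all tested genes) and 1 lower (against 9.19%). The genotypes did not overlap for 6 higher (against 12.3% of all tested genes) and 2 lower (against 11.3%). The fitted mean was higher in the knockout for 15 and lower for 3, with a median log2 fold change of 0.48 against -0.01 over all genes. Nr2e1 (Tlx), an orphan nuclear receptor that keeps adult and embryonic stem cells dividing in the brain, had 7.44, 6.39 and 12.3 CPM in WT and 20.0, 25.1 and 21.8 in the knockout (fitted log2 fold change 1.31, SE 0.37, edgeR adjusted p 0.212). Gli3, a zinc-finger factor of the Hedgehog pathway, had 3.57, 5.60 and 5.45 CPM against 11.3, 11.7 and 11.2 (1.24, SE 0.42, edgeR adjusted p 0.238). Pou3f1, a POU factor, had 36.6, 22.4 and 40.6 CPM against 15.5, 13.4 and 12.5 (-1.29, SE 0.33, edgeR adjusted p 0.208). These 3 genes, named for the smallest p in the list, are among those without overlap. Pou3f2, the POU partner of Sox2 on neural enhancers, had 25.6, 3.20 and 39.0 CPM in WT and 38.5, 43.7 and 49.8 in the knockout, with WT replicates 1 and 2 below and WT replicate 3 inside the knockout range.

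Genes that Sox factors act on in progenitors and glia, a list of 17, had 13 tested members. Of these 0 passed over all genes by edgeR, 1 (Fabp7, higher) had an unadjusted p under 0.05 where 6.70% of all tested genes did in that direction, 8 had a higher and 5 a lower fitted mean in the knockout, and the median log2 fold change was 0.05. Fabp7, a lipid-binding protein of radial glia, had 352, 73.5 and 708 CPM in WT and 689, 2132 and 1547 in the knockout (1.94, SE 0.68, edgeR adjusted p 0.240), with WT replicate 3 inside the knockout range. Nes, the intermediate filament nestin whose neural enhancer Sox and POU factors bind, had 276, 110 and 393 CPM in WT and 205, 171 and 193 in the knockout (-0.46, SE 0.40, edgeR adjusted p 0.585). Gfap, an astrocytic filament gene downstream of Sox9, had 12.8, 103 and 0.227 CPM in WT and 3.61, 24.6 and 6.71 in the knockout (-1.64, SE 1.25, edgeR adjusted p 0.532). The WT range of Gfap thus enclosed the whole knockout range. Shh, Lin28a and Lin28b had 0 reads in all libraries.

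Neuronal genes on which Sox4 and Sox11 act had no common direction. Of 9 genes 7 were tested and 0 passed by edgeR, and 1 (Marcks, higher) had an unadjusted p under 0.05, where 6.70% of all tested genes did in that direction. The fitted mean was higher in the knockout for 3 and lower for 4, with a median log2 fold change of -0.60. Tubb3, the neuronal tubulin, had 11.3, 14.4 and 4.99 CPM in WT and 3.76, 7.42 and 4.92 in the knockout (-0.88, SE 0.52, edgeR adjusted p 0.427). Tead2, a Hippo pathway factor, had 91.7, 71.1 and 59.9 CPM against 54.2, 45.5 and 47.7 without overlap (-0.60, SE 0.27, edgeR adjusted p 0.317). Marcks, a membrane-bound actin regulator, had 1017, 565 and 1322 CPM against 1514, 2113 and 1925, also without overlap (0.93, SE 0.35, edgeR adjusted p 0.252). Of the 7 tested genes 1 was higher without overlap (against 12.3% of all tested genes) and 1 lower (against 11.3%).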

How the data were processed

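The authors deposited 1 table with whole-number read counts per gene symbol for 6 libraries, not normalized, beside counts they had scaled and rounded (a score used in no test), log2 fold changes and p-values (raw and adjusted) for knockout against control, per the file headers. The submitters' processing notes name FastQC, HISAT2, HTSeq, edgeR and mm10; neither versions nor annotation nor strandedness is given in the sources used here. Per the labels' protocols the kit was a 3′ tag kit (QuantSeq forward) on RNA with an integrity number above 7, with 20 to 24 PCR cycles. Columns were matched to samples by library name; 0 per-sample columns were unused.

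Counts were fitted in R 4.3.3 with edgeR 4.0.16 (trimmed mean of M values factors, default filter with a count minimum of 10 and total minimum of 15, robust quasi-likelihood F test, no covariate), with Benjamini-Hochberg adjustment over all 11317 tested genes and a threshold of 0.05. SEs of log2 fold changes were derived from F (absolute change over root F). The script was tested on simulated data. Alternatives used DESeq2 1.42.0, limma 3.58.1, other scalings and filters, a replicate block and left-out libraries. The Sox genes, gene lists and tests were chosen with earlier results of these data known. The genes named besides the 10 were Pml, the 45S row, other Sox rows and, per list, the 3 tested genes with the smallest p. Pou3f2, Vim, Col11a1 and genes listed at 0 reads were named after their values were seen. Coordinates and sequences are from GENCODE M21 (GRCm38, the assembly that mm10 names).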

Additional observations from a re-analysis of the deposited data

How the results depend on the processing

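The count of Sox genes past the threshold, 0 of 10, was 1 (Sox5) by voom with library quality weights, and from 0 to 1 with each library left out; it was 0 under every other alternative run. Over all genes 1 passed. The count was 0 with DESeq2 size factors, library totals, a 5 CPM minimum, limma voom or without the 45S row. It was 3 with no count filter, 328 in DESeq2, 358 in the exact test, 1242 with quality weights and 142 without both WT replicates 1 and 2, a fit in which the lone WT library is assumed to vary like the knockout libraries. It ran from 0 to 1526 with each library left out, the highest without WT replicate 3.

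With the replicate block 2 genes and 0 Sox genes passed. Deviations of same-numbered libraries correlated across genes at -0.0025, 0.067 and 0.19, and not every library correlated best with its own number. The numbers were therefore not taken to pair the samples. They are the replicate numbers of the sample titles, and the knockout library names carry other numbers. By those names WT replicate 2 would match knockout replicate 1 (0.087), and WT replicate 3 knockout replicate 2 (-0.056). No block by library name was run.

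The sign of the log2 fold change turned for 6 of the 10 Sox genes. Sox1 (0.00028) was -0.0085 with DESeq2 size factors, -0.015 in DESeq2, -0.049 in voom, -0.12 with quality weights, -0.0067 in the exact test and -0.22 without both WT replicates 1 and 2; with single libraries left out it ran from -0.22 to 0.15. Sox9 (-0.03) was 0.011 with upper quartile factors, 0.50 with library totals, 0.021 with no filter, 0.0040 in voom, 0.012 with the replicate block and 0.50 without both WT replicates; single libraries gave -0.22 to 0.28. Sox2 was 0.31 with library totals and 0.44 without both WT replicates, with -0.46 to 0.044 for single libraries. Sox11 was -0.36 without both, and -0.070 to 0.52 for single libraries. Sox3 (-0.48) ran from -0.84 to 0.23 for single libraries, and Sox8 (0.32) was -0.011 with quality weights. Sox4, Sox5, Sox6 and Sox21 kept their sign under all 19 alternatives. The cause of each change was not tested. Depth limits Sox1 most, with 19 reads in WT replicate 2.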

Other observations

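Sox10, the group E factor of the oligodendrocyte lineage and not among the 10 genes above, varied widely within both genotypes. It had 219, 210 and 45 reads in WT replicates 1, 2 and 3 and 284, 829 and 371 in the knockout, or 65.2, 168 and 10.2 CPM against 42.7, 137 and 55.3 (log2 fold change -0.02, SE 0.77, edgeR adjusted p 0.993). The genotypes overlapped over nearly the whole range. A list of 10 myelin genes on which Sox10 and Sox8 act summed to 252, 585 and 109 CPM in WT and 129, 602 and 396 in the knockout, so the same libraries, WT replicate 2 and knockout replicate 2, were highest in both. Of 5 tested members of that list 0 passed by edgeR, and 2 had an unadjusted p under 0.05, both higher, among them Myrf, where 6.70% of all tested genes were higher at that level. Myrf, the myelin regulatory factor, had 4.46, 0 and 1.36 CPM in WT and 5.87, 36.8 and 18.6 in the knockout. Knockout replicates 2 and 3 carried the difference in Myrf, while knockout replicate 1 lay near WT. Mbp, myelin basic protein, had 42.0, 66.3 and 15.7 CPM against 13.1, 137 and 103.

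Cartilage genes on which Sox9, Sox5 and Sox6 act, some of which early neural tissue also expresses, were low except for Col11a1. That gene had 73.5, 99.1 and 43.4 CPM in WT and 73.6, 109 and 58.9 in the knockout, with the genotypes overlapping. Its log2 fold change was 0.18 (SE 0.36, edgeR adjusted p 0.827). Of 11 genes 5 were tested, 0 passed by edgeR and 2, Col9a3 and Col9a1, had an unadjusted p under 0.05, both higher, where 6.70% of all tested genes were. Col9a3, a collagen IX chain, had 4.76, 5.60 and 6.81 CPM in WT and 9.33, 14.2 and 11.2 in the knockout, without overlap. Col9a1, another chain of that collagen, had 1.19, 0 and 1.82 CPM against 2.26, 10.7 and 6.26, also without overlap. Of the 5 tested genes these 2 were higher without overlap (against 12.3% of all tested genes) and 0 were lower (against 11.3%). Col2a1, the main cartilage collagen, had 8.63, 0.799 and 2.27 CPM against 3.61, 19.1 and 4.77, with the genotypes overlapping. Matn1 and Comp, which mark mature cartilage, had 0 reads in all libraries.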
